A study of Homo sapiens with 4 samples.

Results

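The genes described here were 10 genes of megakaryocytes and platelets. PPBP and PF4 encode chemokines of the platelet alpha granule, and SRGN, MMRN1, SELP and TREML1 encode other molecules stored in or carried on granules. F13A1 encodes a transglutaminase, and PLEK, RGS18 and TUBB1 act in platelet signaling and shape. All 10 genes were picked by symbol from a table of 58365 genes because their level was known to be higher in SB431542-treated cells. Each symbol had 1 entry. The difference between treated and control cells is therefore a description for these 10 genes. Counts of them from the fit over all genes restate that choice. RNA was sequenced from cells of the long-established human embryonic stem cell line H1 at day 8 of hematopoietic differentiation. All cells received activinA and BMP4 for 2 days, VEGF and bFGF for 3 days, and VEGF and bFGF for the last 3 days. In those last 3 days SB431542 (SB), an inhibitor of the type I receptors for TGFβ, was present in 2 libraries, and the other group was 2 libraries labelled DMSO, the usual solvent control. Both groups carry replicate numbers 1 and 2, all libraries come from 1 line, and the labels do not say whether the replicates were separate cultures. The study states in general that its experiments were independent, without naming these libraries, so the spread between them may be technical. The study describes collecting CD31+ cells at day 8, a step that the labels leave out.

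Megakaryocytes arise from hematopoietic progenitors, enlarge, and shed platelets into the blood. Before doing so they fill alpha granules with chemokines, adhesive proteins and clotting factors, which platelets release at a wound. In the embryo, blood progenitors emerge from hemogenic endothelium by the endothelial-to-hematopoietic transition, and genes of the megakaryocyte lineage are among the first blood genes to appear. The study asked how TGFβ signaling acts at this transition.

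All 4 libraries carried endothelial and blood transcripts. FPKM (fragments divided by transcript length in kilobases and scaled to library size) compares levels between genes per length, and all levels below are in this unit. PECAM1, which encodes CD31, stood at 153 to 197 FPKM and CDH5, the endothelial cadherin, at 202 to 273 FPKM. ITGA2B, the platelet integrin CD41, stood at 153 and 127 FPKM in DMSO replicates 1 and 2 and at 243 and 194 FPKM in SB replicates 1 and 2. SPN, which encodes the early blood marker CD43, stood at 31.6 and 36.2 FPKM with DMSO and at 52.9 and 66.8 FPKM with SB. PTPRC, which encodes the leukocyte marker CD45, did not exceed 0.202 FPKM in any library. The libraries were bulk RNA, so more megakaryocyte-lineage cells and more RNA per such cell cannot be told apart in any value below. Relative to the deepest library, SB replicate 2, the depth recovered from the steps of low values was 75.8% in SB replicate 1 and 90.9% to 94.2% in the DMSO libraries. At that depth 1 fragment on 1000 bases of effective transcript length was worth 0.0388 to 0.0512 FPKM.

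All 10 genes were expressed and all 10 were higher in both SB libraries than in both DMSO libraries, an arrangement that held for 21.5% of the 14909 genes tested. Tested genes had a mean of at least 1 FPKM in at least 1 group. PPBP, TREML1 and F13A1 reached that mean in the SB group alone, so these 3 genes could enter only as genes that were higher with SB, and the other 7 reached it in both groups. On the log2(FPKM + 1) scale the difference of SB minus DMSO was at least 1 for 8 of the 10 genes, against 1.56% of all genes tested, and SRGN and MMRN1 lay below 1. The median difference of the 10 genes was 1.38, against 0.04 for all tested genes, and it was 1.45 within replicate number 1 and 1.44 within number 2. By limma with Benjamini-Hochberg adjustment over all genes, 0 of the 10 had an adjusted p under 0.05, a level that 0.134% of all genes reached in either direction and 0.0268% as higher with SB. With the replicate number as a block in the fit it was 9 of the 10, against 5.5% of all genes called higher. At an unadjusted p under 0.05 the count was 10 of 10, all higher with SB, against 4.8% of all genes higher at that level.

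**Figure D1:**
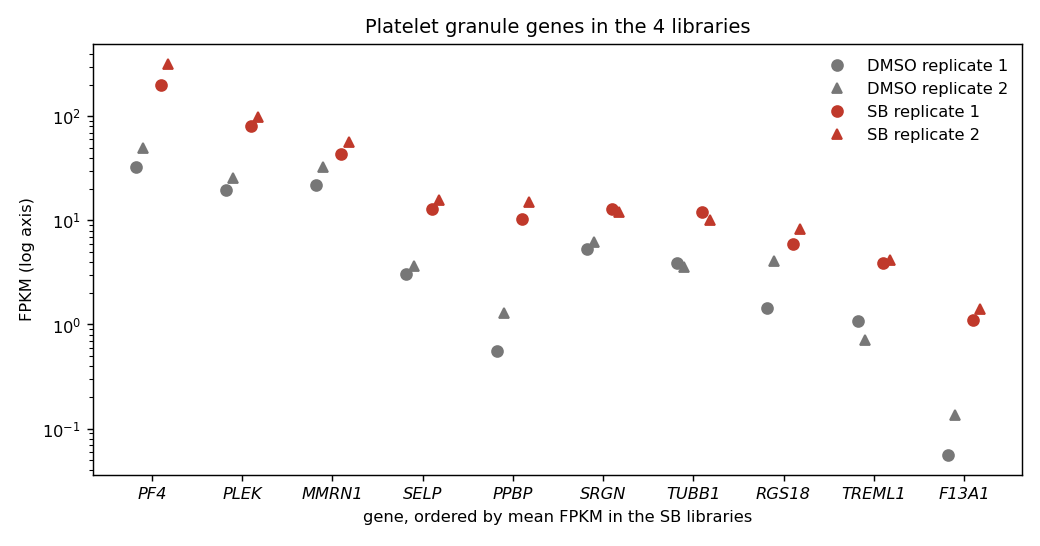
FPKM (log axis) of the 10 genes in the 4 libraries, with DMSO in grey, SB in red, circles for replicate 1 and triangles for replicate 2. Genes are ordered by their mean in the SB libraries, from PF4 at 260.4 FPKM to F13A1 at 1.26 FPKM, and for every gene both red points lie above both grey points.

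Megakaryocyte genes are known as targets of GATA, RUNX and ETS factors, so the sequence before their starts was searched for short words that these factors prefer. RefSeq start sites on GRCh38.p14 gave windows of 250 bases before the start for 8 of the 10 genes (MMRN1 and TREML1 with 2 starts each). These starts differ from the gene ends printed below. The F13A1 window and the second MMRN1 window lie wholly inside the gene as printed below. The SELP, PLEK and TUBB1 windows lie partly inside it, and the PPBP and RGS18 windows reach a few bases into it. The words for GATA were AGATAA or AGATAG and also TGATAA or TGATAG. The word for RUNX was TGTGGT, the words for ETS were AGGAAG or CGGAAG, and the word for SMAD was CAGAC, each read on both strands. A GATA word was present in 4 of these 10 windows, against 22.3% of 35116 windows of all genes. A RUNX word was present in 4 of the 10, against 11% of all windows, an ETS word in 6, against 40.8%, and a SMAD word in 3, against 38%. The 2 TREML1 windows overlap almost wholly and hold the same ETS word. PPBP, SELP and RGS18 were the genes whose window held both a GATA and a RUNX word, and their windows are shown for that reason, 5′ to 3′ on the gene's strand with the GATA, RUNX and ETS words in capitals. The PPBP window is chr4:73988191-73988440 on the minus strand, the SELP window chr1:169630125-169630374 on the minus strand and the RGS18 window chr1:192158212-192158461 on the plus strand.
PPBP: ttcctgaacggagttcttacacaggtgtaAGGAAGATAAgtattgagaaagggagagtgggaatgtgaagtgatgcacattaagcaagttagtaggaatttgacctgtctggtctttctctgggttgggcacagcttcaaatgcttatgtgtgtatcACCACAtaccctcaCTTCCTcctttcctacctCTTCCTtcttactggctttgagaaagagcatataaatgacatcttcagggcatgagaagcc
SELP: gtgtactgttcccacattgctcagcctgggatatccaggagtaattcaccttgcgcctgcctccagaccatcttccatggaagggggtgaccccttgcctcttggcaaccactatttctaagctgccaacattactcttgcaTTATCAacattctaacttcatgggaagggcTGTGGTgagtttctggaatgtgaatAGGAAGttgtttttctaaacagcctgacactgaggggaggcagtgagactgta
RGS18: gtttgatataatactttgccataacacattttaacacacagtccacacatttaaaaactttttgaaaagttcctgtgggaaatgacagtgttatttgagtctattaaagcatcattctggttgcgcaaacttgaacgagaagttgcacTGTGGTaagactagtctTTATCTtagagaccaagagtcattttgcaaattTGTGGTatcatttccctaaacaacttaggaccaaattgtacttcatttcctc
In the PPBP window the GATA word AGATAA lies 217 to 212 bases before the start and shares its first bases with the end of an ETS word at 221 to 216. The RUNX word of PPBP lies on the opposite strand at 93 to 88 bases, between that pair and ETS words at 79 to 74 and 61 to 56. In the SELP window a GATA word at 108 to 103, a RUNX word at 78 to 73 and an ETS word at 53 to 48 follow each other. In the RGS18 window a GATA word at 85 to 80 is flanked by RUNX words at 102 to 97 and 52 to 47, and no ETS word was present. A SMAD word, left in small letters above, lies at 144 to 140 bases in the PPBP window and at 187 to 183 in the SELP window. The RGS18 window held no SMAD word. The TUBB1 window held none of the words of the 4 factor families. These matches describe letters, and no binding was measured.

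PPBP (ENSG00000163736.3) encodes pro-platelet basic protein, the precursor of the neutrophil-attracting chemokine CXCL7. The gene has 3 exons and lies at chr4:73987038-73988197 on the minus strand (GRCh38). It stood at 0.559 and 1.29 FPKM in DMSO replicates 1 and 2 and at 10.3 and 15.0 FPKM in SB replicates 1 and 2. The lower SB library was thus well above the higher DMSO library, although replicate 2 was the higher one in both groups. The means were 0.926 ± 0.519 FPKM with DMSO and 12.65 ± 3.33 FPKM with SB (SD, n = 2), a ratio of 13.7. The log2 difference was 2.83 (SE 0.29), which ranked 12 from the top of the 14909 tested genes. The DMSO level rested on few reads, about 5.91 and 13.2 fragments on the 715 bases of the transcript, against about 87.6 and 168 with SB. Its ratio was 18.4 within replicate number 1 and 11.6 within number 2.

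PF4 (ENSG00000163737.3), at chr4:73981077-73982124 on the minus strand, encodes platelet factor 4 (CXCL4), which binds heparin and is packed into alpha granules. It stood at 32.6 and 49.7 FPKM with DMSO and at 198.85 and 322 FPKM with SB. The means were 41.15 ± 12.1 and 260.4 ± 87.1 FPKM (SD, n = 2), a ratio of 6.33, and the log2 difference was 2.62 (SE 0.33). PF4 was the most abundant of the 10 genes in every library. It made up 36.3% and 39.2% of their summed FPKM with DMSO, and 52.1% and 59.2% with SB. The sum itself was 89.8 and 127 FPKM with DMSO and 382 and 544 FPKM with SB.

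The 2 chemokine genes kept unequal proportions. PF4 exceeded PPBP by 58.3 and 38.4 times per length in the DMSO libraries and by 19.3 and 21.5 times in the SB libraries. The ratio was thus lower in both SB libraries, with the PPBP counts of the DMSO libraries at the low level given above.

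Serglycin, the product of SRGN (ENSG00000122862.4, chr10:69088106-69104811, plus strand), is the proteoglycan that holds PF4 and other cargo inside granules. It is also made by endothelium and by many leukocytes. SRGN stood at 5.37 and 6.24 FPKM with DMSO and at 12.8 and 12.01 FPKM with SB, a ratio of means of 2.14. The log2 difference was 0.98 (SE 0.17), and replicate 2 was not the higher library in the SB group.

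F13A1 (ENSG00000124491.15, chr6:6144085-6321013, minus strand) encodes the A subunit of coagulation factor XIII, the transglutaminase that cross-links fibrin. It was the least abundant of the 10 genes in every library, at 0.0554 and 0.135 FPKM with DMSO and at 1.10 and 1.41 FPKM with SB. Over the longest transcript of 3999 bases these are about 5.01 and 11.8 fragments with DMSO and about 79.9 and 136 with SB. The ratio of means was 13.2, close to that of PPBP, but the log2 difference with 1 added was 1.04 (SE 0.24), because that scale compresses values under 1 FPKM. With 0.1 in place of 1 the difference was 2.82.

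MMRN1 (ENSG00000138722.9, chr4:89879532-89954629, plus strand) encodes multimerin 1, the large protein that carries factor V in alpha granules, and it is also made by endothelial cells. It was already among the higher of the 10 genes without SB, at 21.97 and 32.3 FPKM, and stood at 43.2 and 56.7 FPKM with SB. Its ratio of means, 1.84, was the smallest of the 10, and its log2 difference was 0.87 (SE 0.26). The lower SB library exceeded the higher DMSO library, yet by less than the SB libraries differed from each other.

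P-selectin, from SELP (ENSG00000174175.16, chr1:169588849-169630193, minus strand), sits in the membrane of alpha granules and of endothelial Weibel-Palade bodies, and reaches the surface on activation to capture leukocytes. SELP stood at 3.05 and 3.63 FPKM with DMSO and at 12.8 and 15.9 FPKM with SB. The ratio of means was 4.30 and the log2 difference 1.82 (SE 0.19), with 1.77 within number 1 and 1.86 within number 2.

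TREML1 (ENSG00000161911.11, chr6:41149342-41154337, minus strand) encodes TLT-1, a receptor of the platelet lineage stored in alpha granules. It stood at 1.07 and 0.704 FPKM with DMSO and at 3.89 and 4.13 FPKM with SB. The SB libraries agreed closely, and the ratio of means was 4.52 with a log2 difference of 1.41 (SE 0.21). About 23.8 and 15.1 fragments lay behind the DMSO values, counted on its longest transcript.

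PLEK (ENSG00000115956.9, chr2:68365173-68397453, plus strand) encodes pleckstrin, the main target of protein kinase C in activated platelets. It was second to PF4 in the SB libraries, at 81.0 and 98.5 FPKM, and stood at 19.8 and 25.3 FPKM with DMSO. The ratio of means was 3.98, the log2 difference was 1.95 (SE 0.21), and the differences within numbers 1 and 2 were 1.98 and 1.92. An antisense gene, AC015969.1, overlaps PLEK, and strand use in counting is not given in the sources used here.

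RGS18 (ENSG00000150681.9, chr1:192158457-192185815, plus strand) encodes a regulator that shortens G-protein signals and restrains platelet activation. It stood at 1.45 and 4.07 FPKM with DMSO and at 5.98 and 8.26 FPKM with SB, the widest relative spread between DMSO libraries of the 10 genes. The ratio of means was 2.58 and the log2 difference 1.19 (SE 0.40). Its size moved with either DMSO library: the difference was 0.67 without DMSO replicate 1 and 1.71 without DMSO replicate 2. The noncoding gene AL390957.1 overlaps RGS18 on the other strand.

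TUBB1 (ENSG00000101162.3, chr20:59019254-59026654, plus strand) encodes beta-1 tubulin, the isotype that forms the marginal microtubule band of platelets. It stood at 3.94 and 3.55 FPKM with DMSO and at 12.03 and 10.1 FPKM with SB. Replicate 1 was the higher library in both groups, unlike for PPBP and PF4. The ratio of means was 2.96 and the log2 difference 1.34 (SE 0.18). TUBB1 overlaps ATP5F1E, a protein-coding gene of the mitochondrial ATP synthase on the opposite strand, so its level is uncertain where strand was not used.

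**Figure D2:**
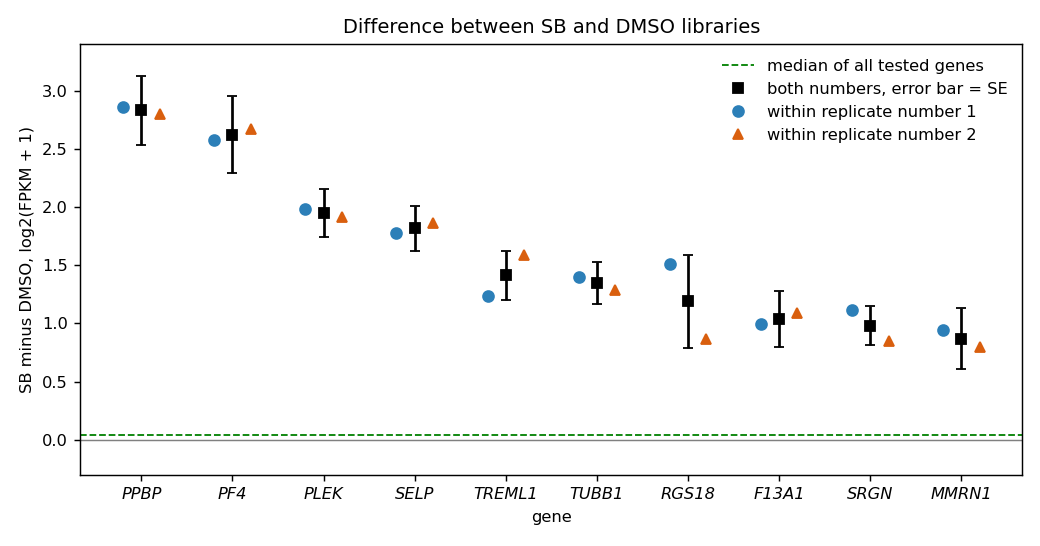
Difference of SB minus DMSO on the log2(FPKM + 1) scale for each of the 10 genes, as the value over both numbers with its SE (black squares) and within replicate numbers 1 (circles) and 2 (triangles); the dashed line is the median of all tested genes, 0.04. On this scale PPBP and PF4 stand apart at 2.83 and 2.62, and MMRN1 is lowest at 0.87. The values within numbers differ most for RGS18, at 1.51 and 0.87. With 0.1 added in place of 1, not shown, F13A1 was 2.82 and PF4 2.65.

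In the DMSO libraries the levels ran from PF4 through MMRN1, PLEK, SRGN, TUBB1, SELP, RGS18, PPBP and TREML1 to F13A1. The libraries of MMRN1 and PLEK overlapped in that order, as did those of TUBB1 with SELP, SELP with RGS18, and PPBP with TREML1. In the SB libraries the order was PF4, PLEK, MMRN1, SELP, PPBP, SRGN, TUBB1, RGS18, TREML1 and F13A1, with overlap from SELP through TUBB1. PPBP thus moved from the eighth place to the fifth, within a run of 4 genes whose neighbours overlapped. Replicate 2 was higher than replicate 1 in both groups for 7 of the 10 genes, against 42.2% of all tested genes. The median difference of replicate 2 minus replicate 1 was 0.27 with DMSO and 0.28 with SB for the 10 genes, and 0.04 and 0.02 for all genes. The part of the replicate number in the levels was not tested, and the differences between groups within each number are given for that reason.

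Ratios of the 10 genes to other megakaryocyte genes depended on the gene taken as reference. They are log2 ratios of plain FPKM in the same library, with no 1 added, unlike the log2 differences above. Taken as a ratio to ITGA2B, 8 of the 10 were higher in both SB libraries than in both DMSO libraries, and MMRN1 and RGS18 overlapped. On that ratio 2.27% of the 14908 tested genes besides ITGA2B were higher and 60.9% lower in both SB libraries. The difference of that ratio was largest for PPBP at 3.23 and F13A1 at 3.21, and was 2.01 for PF4 and 0.26 for MMRN1. The PPBP and F13A1 ratios rest on the few DMSO fragments given above for both genes. Taken as a ratio to GATA1, 8 of the 10 were also higher in both SB libraries, and MMRN1 and RGS18 again overlapped. The share over all tested genes was not computed for the ratio to GATA1. GP9 encodes a subunit of the von Willebrand factor receptor. Taken as a ratio to GP9, 6 of the 10 were higher in both SB libraries. RGS18 and TUBB1 overlapped, and SRGN and MMRN1 were lower. On that ratio 0.429% of the 14908 tested genes besides GP9 were higher and 95.3% lower in both SB libraries. Against GP9 the differences were 2.11 for PPBP, 0.90 for PF4, 0.35 for SELP, -0.65 for SRGN and -0.86 for MMRN1. GP9 itself stood at 5.29 and 5.73 FPKM with DMSO and at 17.3 and 20.0 FPKM with SB. Its own difference, on the log2(FPKM + 1) scale, was 1.59 (limma adjusted p = 0.080).

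PF4 and PPBP are neighbours on chromosome 4, 4913 bases apart, in a cluster of 11 CXC chemokine genes and pseudogenes that spans 358788 bases. Besides them 5 genes of the cluster were tested. All 5 were higher in both SB libraries than in both DMSO libraries, against 21.5% of all tested genes. By limma 0 of 5 had an adjusted p under 0.05. At an unadjusted p under 0.05 it was 5 of 5, against 4.8% of all genes higher at that level. PF4V1 and CXCL6 reached 1 FPKM in the SB group alone and could enter only as higher, while CXCL1, CXCL2 and CXCL3 reached it in both groups. The median log2 difference of the 5 was 1.92, and it was 1.40 with no filter. PF4V1, a recent duplicate of PF4, was listed at 0 and 0.363 FPKM with DMSO and at 5.37 and 6.47 FPKM with SB (log2 difference 2.56, limma adjusted p = 0.075). The PF4 and PF4V1 transcripts were identical at 89.8% of 501 aligned bases, so fragments may have been shared between them, and the PF4V1 value is uncertain. PF4 and PPBP were identical at 66.4% of 241 aligned bases.

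The neutrophil chemokine CXCL6 stood at 0.400 and 0.535 FPKM with DMSO and at 5.96 and 5.57 FPKM with SB (2.20, limma adjusted p = 0.065). CXCL1, the gene next to PF4 on the other side from PPBP, stood at 1.92 and 1.44 FPKM with DMSO and at 8.79 and 9.42 FPKM with SB (1.92, limma adjusted p = 0.075). CXCL3 and CXCL2 were higher without SB than these, at 8.34 to 10.1 FPKM, and stood at 22.4 to 29.8 FPKM with SB. CXCL5, directly beside PPBP, did not share the pattern in size. It stood at 0.364 and 0.643 FPKM with DMSO and at 0.812 and 0.751 FPKM with SB, under the level tested. CXCL8, which encodes interleukin-8 at the other end of the cluster, reached at most 0.379 FPKM, and the pseudogenes PPBPP1 and PPBPP2 reached at most 0.0396 FPKM.

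**Figure D3:**
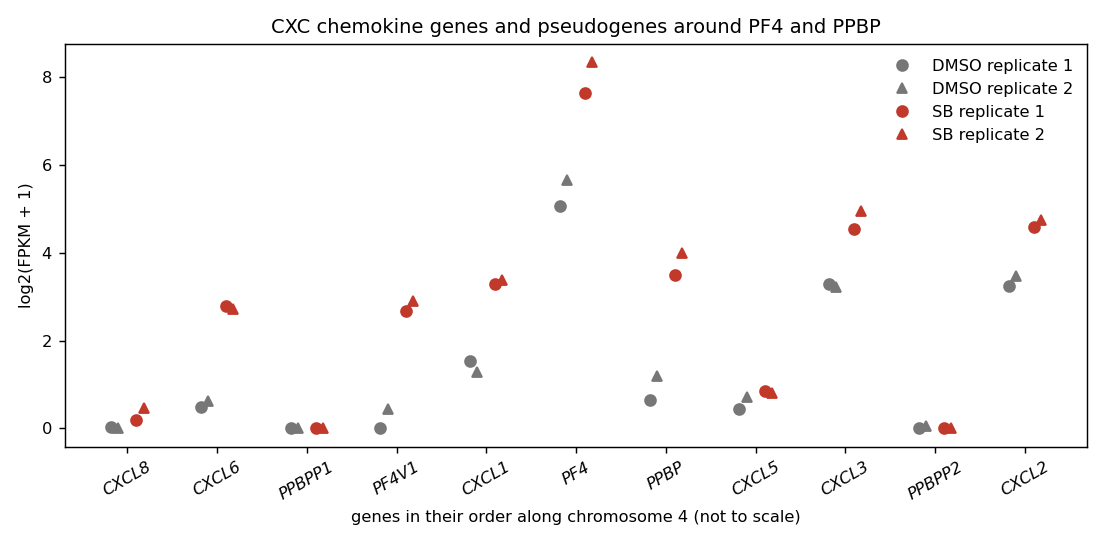
log2(FPKM + 1) of the CXC chemokine genes and pseudogenes in their order along chromosome 4, with DMSO in grey and SB in red, circles for replicate 1 and triangles for replicate 2. PF4 stands far above its neighbours in every library, and CXCL8, CXCL5 and the pseudogenes stay under 1 FPKM in all libraries.

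Relatives of the other genes did not share one direction. Of 7 tested beta tubulin genes other than TUBB1, 1 was higher and 1 lower in both SB libraries, and the median log2 difference was -0.19. TUBB6 was the most abundant of these isotypes, at 315 and 233 FPKM with DMSO and 269 and 192 FPKM with SB, above TUBB1 in every library. Of 14 tested RGS genes other than RGS18, 2 were higher and 6 lower in both SB libraries, with a median of -0.20. Of the 14, 2 were tested through the DMSO group alone and could enter only as lower. RGS5, a gene of pericytes and mural cells, stood at 169 and 271 FPKM with DMSO and at 75.7 and 97.5 FPKM with SB (-1.31, limma adjusted p = 0.25). RGS10, also present in platelets, stood at 50.3 and 58.2 FPKM with DMSO and at 81.5 and 88.9 FPKM with SB (0.64, limma adjusted p = 0.32).

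SELPLG, which encodes the P-selectin ligand PSGL-1, stood at 4.35 and 3.26 FPKM with DMSO and at 10.2 and 8.24 FPKM with SB (1.09, limma adjusted p = 0.21). SELE, the endothelial selectin gene of the same cluster, stood at 5.73 and 7.19 FPKM with DMSO and at 2.70 and 3.63 FPKM with SB (-0.84, limma adjusted p = 0.31). SELP and SELE thus lay on opposite sides, with no overlap of groups in either. Close to TREML1, the microglia and macrophage receptor gene TREM2 stood at 1.12 and 0.827 FPKM with DMSO and at 3.75 and 4.48 FPKM with SB (1.37, limma adjusted p = 0.14). TREM2 was tested through the SB group alone and could enter only as higher. TGM2, the tissue transglutaminase, stood at 116 and 77.2 FPKM with DMSO and at 109 and 74.1 FPKM with SB, with overlapping groups. F13B, which encodes the carrier subunit of factor XIII, was listed at 0 in every library. MMRN2, the endothelial relative of MMRN1, stood at 130 and 122 FPKM with DMSO and at 105 and 100.4 FPKM with SB (-0.29, limma adjusted p = 0.67). PLEK2, the paralog of PLEK, was 0.776 and 1.64 FPKM with DMSO and 0.161 and 0.213 FPKM with SB (-0.87, limma adjusted p = 0.44). PLEK2 was tested through the DMSO group alone and could enter only as lower.

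Other platelet genes were taken from lists of the pathway, with the 10 genes left out. Over 192 tested genes of these lists and of the relatives above, 1 rose and 1 fell at an adjusted p under 0.05 by limma, 91 (47.4%) were higher and 35 (18.2%) lower in both SB libraries, and the median log2 difference was 0.25. Over all tested genes these shares were 21.5% and 16%. Among the 192 genes 6 entered through the SB group alone and 8 through the DMSO group alone. THBS1, the alpha granule adhesive protein thrombospondin-1, rose from 17.2 and 16.1 FPKM to 78.9 and 71.6 FPKM (log2 difference 2.11, SE 0.16, limma adjusted p = 0.046). TGFBI, a TGFβ-induced matrix protein also found in platelets, fell from 29.7 and 31.0 FPKM to 4.10 and 4.93 FPKM (-2.51, SE 0.17, limma adjusted p = 0.036). When any 1 library was left out, which leaves 1 group with a single library, neither was called, while the difference stayed at 2.04 to 2.18 for THBS1 and at -2.62 to -2.40 for TGFBI.

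The alpha granule cargo list was divided. Of its 30 tested genes 9 were higher and 10 lower in both SB libraries, and the median of -0.06 changed sign without DMSO replicate 1 or SB replicate 2. Of the 30, 2 were tested through the SB group alone and 3 through the DMSO group alone. Besides THBS1, PF4V1 and CXCL6 were far higher, while FN1, fibronectin, stood at 236 and 291 FPKM with DMSO and at 56.6 and 64.4 FPKM with SB (-2.10, limma adjusted p = 0.065). VWF, shared by alpha granules and endothelial Weibel-Palade bodies, stood at 22.8 and 19.0 FPKM with DMSO and at 20.3 and 16.6 FPKM with SB. CCL5, another platelet chemokine, did not exceed 0.0471 FPKM.

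Platelet surface receptors leaned to one side. Of 24 tested, 17 were higher and 2 lower in both SB libraries, and the median was 0.65. Of the 24, 2 were tested through the SB group alone. At the adjusted threshold 0 passed, with 15 at an unadjusted p under 0.05, the 2 lower genes among them. Unadjusted counts for the platelet lists take both directions, in which 1485 of the 14909 tested genes reached that level. GP1BB, which pairs with GP9 in the von Willebrand factor receptor, stood at 8.64 and 5.96 FPKM with DMSO and at 35.5 FPKM in both SB libraries (2.15, limma adjusted p = 0.075). GP1BA, the subunit that binds von Willebrand factor, stood at 14.6 and 14.7 FPKM with DMSO and at 31.0 and 31.7 FPKM with SB (1.04, limma adjusted p = 0.13). FCER1G, the signaling chain of the collagen receptor, stood at 29.7 and 38.7 FPKM with DMSO and at 79.8 and 94.1 FPKM with SB (1.33, limma adjusted p = 0.14). GP6, CLEC1B, CD36 and P2RY12, receptors of mature platelets, were under the level tested. GP6 stood at 0.0207 and 0.0221 FPKM with DMSO and at 0.607 and 0.448 FPKM with SB. CLEC1B was listed at 0 and 0.128 FPKM with DMSO and at 0.305 and 0.362 FPKM with SB. CD36 stood at 0.139 and 0.484 FPKM with DMSO and at 0.993 and 0.528 FPKM with SB, and P2RY12 reached at most 0.0276 FPKM.

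Of 26 tested platelet signaling genes 18 were higher and 2 lower in both SB libraries, with a median of 0.53, and 0 were called, with 13 at an unadjusted p under 0.05. ALOX12, the platelet lipoxygenase, stood at 4.86 and 4.06 FPKM with DMSO and at 15.0 FPKM in both SB libraries (1.55, limma adjusted p = 0.082). SYK, a kinase below the collagen receptor, stood at 1.03 and 1.09 FPKM with DMSO and at 4.78 and 5.18 FPKM with SB (1.54, limma adjusted p = 0.095). APBB1IP, an adaptor in integrin activation, had a difference of 1.65 (limma adjusted p = 0.075). Of 21 cytoskeletal genes 14 were higher and 3 lower, with a median of 0.35. In that list 0 were called, with 7 at an unadjusted p under 0.05 in either direction. TUBA8, an alpha tubulin that is prominent in platelets, stood at 1.63 and 1.497 FPKM with DMSO and at 5.18 and 4.54 FPKM with SB (1.19, limma adjusted p = 0.15).

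Genes that build and release granules had small differences. Of 30 tested, 14 were higher and 2 lower in both SB libraries, the median was 0.24, and 0 were called, with 8 at an unadjusted p under 0.05. Of the 30, 1 was tested through the SB group alone. STXBP5, a syntaxin-binding regulator of granule release, stood at 12.9 and 17.1 FPKM with DMSO and at 30.4 and 38.2 FPKM with SB (1.14, limma adjusted p = 0.21). SLC18A2, which loads serotonin into dense granules, stood at 3.81 and 4.45 FPKM with DMSO and at 7.54 and 8.59 FPKM with SB (0.82, limma adjusted p = 0.25). Among 17 tested megakaryocyte factors 9 were higher and 0 lower in both SB libraries, with a median of 0.45, and 0 were called, with 6 at an unadjusted p under 0.05. That median was 0.21 without DMSO replicate 2 and also without SB replicate 1. GFI1B, a repressor needed for megakaryocyte and red cell development, is split in the table, and its higher entry stood at 28.2 and 21.8 FPKM with DMSO and at 76.3 and 64.5 FPKM with SB (1.47, limma adjusted p = 0.12). RUNX1, a regulator of the endothelial-to-hematopoietic transition, stood at 35.3 and 33.6 FPKM with DMSO and at 69.8 and 53.6 FPKM with SB (0.81, limma adjusted p = 0.28). GATA1, the erythroid and megakaryocytic master factor, stood at 42.8 and 40.9 FPKM with DMSO and at 63.0 and 62.7 FPKM with SB (0.58, limma adjusted p = 0.32).

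**Figure D4:**
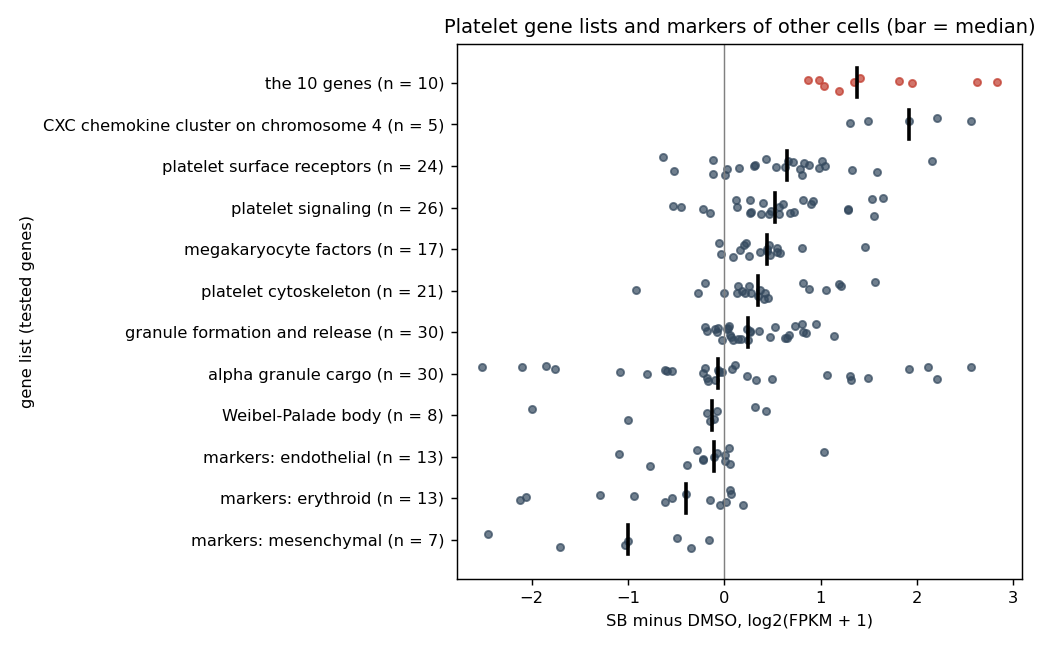
Difference of SB minus DMSO on the log2(FPKM + 1) scale for the 10 genes (red) and for the tested genes of platelet lists and of markers of other cells (blue), with a bar at each median; vertical scatter inside a row carries no value. The 10 genes were chosen for this difference; the medians run from 1.92 in the chemokine cluster through 0.65 for surface receptors to -0.999 for mesenchymal markers.

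Several of the 10 genes are also made by endothelial cells or leukocytes, so markers of those cells were summed. The 13 endothelial markers summed to 6041 and 3885 FPKM with DMSO and to 4508 and 3208 FPKM with SB, and their median log2 difference was -0.11. PLVAP, a gene of fenestrated endothelium, alone stood at 3407 and 1645 FPKM with DMSO and at 1936 and 991 FPKM with SB. The other 12 summed to 2633 and 2240 FPKM with DMSO and to 2572 and 2217 FPKM with SB. The 13 macrophage markers summed to 59.5 and 80.3 FPKM with DMSO and to 140 and 175 FPKM with SB, and 5 of them were tested, all 5 higher in both SB libraries. AIF1 was the most abundant of them in every library. CSF1R stood at 2.77 and 1.83 FPKM with DMSO and at 14.4 and 12.5 FPKM with SB, CD14 reached at most 0.169 FPKM, ITGAM stood at 0.429 and 0.610 FPKM with DMSO and at 0.0458 and 0.0521 FPKM with SB, and FCGR1A was listed at 0 in every library. Their part in the levels of PPBP, PF4, SRGN, PLEK and F13A1 was not tested. Erythroid markers lay on the other side, with 0 of 13 tested higher and 7 lower in both SB libraries and a median of -0.39. Mesenchymal markers were lower in both SB libraries for 7 of 7 tested, and COL1A1 stood at 107 and 78.5 FPKM with DMSO and at 17.1 and 14.8 FPKM with SB.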

How the data were processed

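RNA was sequenced by the study from 4 libraries of H1-derived cells (TruSeq RNA kit, total RNA), 2 treated with DMSO and 2 with SB431542, grouped by their titles. The authors deposited 1 table of FPKM values with 58365 rows and 1 column per library, and all of these columns were used. Scaling between libraries, strand use and the pooling of replicates are not given in the sources used here. The submitters' processing notes list BWA, Bowtie, RSEM and hg19. The positions in the table match GENCODE release 29 on GRCh38 instead: 95.5% of rows had an identifier and version found there, and 99.8% of those had the same position once counted from 1. Coordinates are therefore given on GRCh38.

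FPKM values hold no counts. Depth was read from genes of 1 exon and 1 transcript of at least 1000 bases, with an effective length of the transcript less 280 bases, a value chosen after the data were seen. Between 95.6% and 96.7% of 858 to 899 genes then came to whole fragments within 0.05. The recovered depth was 24300000 and 23450000 fragments in DMSO replicates 1 and 2 and 19550000 and 25800000 in SB replicates 1 and 2. Fragment numbers given in the text rest on this scale and on the longest transcript, so they are approximate.

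The 10 genes and the gene lists were chosen with earlier results of these data known. Values were transformed to log2(FPKM + 1), which understates the difference of low genes. Genes with a mean of at least 1 FPKM in at least 1 group (14909) were tested between groups by limma 3.58.1 (R 4.3.3), fitting the group alone with trended empirical Bayes, two-sided p-values and Benjamini-Hochberg adjustment over all tested genes at 0.05. The fit was also run on simulated data, with independent errors and with differences set only in genes well above the filter. That run does not bear on low genes such as PPBP, TREML1 and F13A1 or on the replicate number, and it is not used as support here. Ratios of means and ratios to a reference gene are of plain FPKM. With 2 libraries per group an error rests on few degrees of freedom, and SD and SE measure the spread between these libraries only. An exact 0 can be a failed estimate, so such a gene is only said to be listed at 0.

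Named were the 10 genes, the chosen cell markers, any relative of the 10 genes, each list gene that was called, up to 4 further genes per list with the largest difference, and the 5 genes nearest in profile to PPBP and to the mean of the 10 genes. VWF and CCL5 in the cargo list, the receptor genes under the level tested and single marker genes such as PLVAP and ITGAM were named outside that rule, after their values were seen. Promoter windows are 250 bases before RefSeq starts (GRCh38.p14). PF4 and SRGN have no window here. Alternatives were other filters, a pseudocount of 0.1, upper-quartile and quantile scaling, the replicate number as a block, and leaving out each library.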

Additional observations from a re-analysis of the deposited data

How the results depend on the processing

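Over all genes 20 were called, against 0 with no filter on low values, 31 with quantile scaling and 0 to 16 when 1 library was left out. Of the list genes 2 were called, against 0 with no filter, 4 with quantile scaling and 0 whichever library was left out. With no filter 29447 genes were tested. The median log2 difference of the 10 genes, 1.38, was 2.03 with a pseudocount of 0.1 and 1.58 with at least 5 FPKM in at least 2 libraries, where F13A1 and TREML1 dropped out and 8 genes were left. Each gene that remained was higher with SB under every alternative run. The ranges were 2.55 to 3.71 for PPBP, 2.28 to 2.97 for PF4, 0.94 to 2.82 for F13A1, 0.67 to 1.71 for RGS18 and 0.60 to 1.14 for MMRN1. Labels share replicate numbers without saying what a number marks. With 2 numbers the pairing of same-numbered libraries could not be established from the data (correlation of deviations 0.53). Over all tested genes the Pearson correlation was 0.960 and 0.964 between same-numbered DMSO and SB libraries. It was 0.956 within DMSO and 0.961 within SB. Between groups with unlike numbers it was 0.935 and 0.945. Libraries thus resembled each other by number about as much as by group, and the reason was not tested. With the replicate number as a block 1564 genes were called over all genes, 89 among the list genes and 9 among the 10 genes. Changes of F13A1, PPBP and TREML1 with the pseudocount follow from their low DMSO values. For the other values that moved the cause was not tested. Depth limits PPBP and F13A1 most, whose lowest DMSO values rest on about 5.91 and 5.01 fragments.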

Other observations

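Some genes other than the 10 had nearly the same profile over the 4 libraries, measured as the root mean square difference of log2(FPKM + 1) after each gene was centred on its own mean. Nearest to PPBP were PF4V1 (0.17), the interferon-stimulated genes IFI6 (0.18) and MX1 (0.34), and the pseudogenes ATP5A1P2 (0.36) and RN7SL23P (0.40), while PF4 lay at 0.12. IFI6 stood at 13.5 and 15.7 FPKM with DMSO and at 110.8 and 124 FPKM with SB. Nearest to the mean of the 10 genes were IFIT1 (0.02), GCSAML (0.08), GP9 (0.08), ISG15 (0.08) and TRPC6 (0.09). IFIT1 stood at 2.24 and 2.89 FPKM with DMSO and at 8.80 and 10.6 FPKM with SB, and GCSAML at 2.84 and 3.997 FPKM with DMSO and at 12.3 and 15.3 FPKM with SB. With 4 libraries in 2 groups many genes can take a like profile, and no shared control is implied.

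Markers of further cells were uneven. Of 6 tested lymphatic endothelial markers 3 were higher in both SB libraries, 2 of them (STAB2 and LYVE1) tested through the SB group alone, and the sinusoidal and lymphatic receptor STAB2 stood at 0.135 and 0.0854 FPKM with DMSO and at 2.77 and 2.69 FPKM with SB (log2 difference 1.75, limma adjusted p = 0.095). PROX1, the factor that defines lymphatic endothelium, stood at 1.08 and 1.17 FPKM with DMSO and at 2.08 and 1.04 FPKM with SB, with overlapping groups. PRG2, which encodes the major basic protein of eosinophil granules, stood at 1.30 and 1.72 FPKM with DMSO and at 9.52 and 9.32 FPKM with SB (2.06, limma adjusted p = 0.065), while CLC, EPX and RNASE2 of the same list were listed at 0 in every library. Of 8 granulocyte markers 2 were tested, AZU1 through the DMSO group alone and CTSG through the SB group alone, so the filter fixed their directions, and ELANE and S100A8 were listed at 0 in every library. HDC stood at 13.7 and 13.9 FPKM with DMSO and at 20.9 and 18.3 FPKM with SB, and both of the 2 mast cell and basophil markers tested were higher in both SB libraries. Of 8 lymphoid markers 2 were tested, both through the SB group alone, so they could enter only as higher. Of 8 genes tested in the list of PLEK2 and granule proteoglycan relatives 1 was higher and 3 were lower, with PLEK2, among those 3, tested through the DMSO group alone. Of 8 Weibel-Palade body genes tested 2 were higher and 3 were lower. EDN1, among those 3, stood at 3.28 and 4.31 FPKM with DMSO and at 0.233 and 0.154 FPKM with SB (-1.9998, limma adjusted p = 0.084). EDN1 was tested through the DMSO group alone and could enter only as lower.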
